A study of Homo sapiens with 30 samples.

Results

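SH-EP is an established human neuroblastoma (NB) cell line of the mesenchymal type that lists no MYCN expression, and its MYCN T58A derivative carries a stable retroviral transgene in which threonine 58 of MYCN is replaced by alanine under an exogenous promoter. The T58A line was treated for 6 hours with DMSO, the solvent control, or with 1 µM CYC065, an inhibitor of CDK9 and CDK2, and poly(A) RNA was sequenced from 3 libraries of each group, which make up 6 of the 30 libraries of the series. Parental SH-EP cells and the SH-EP line with WT MYCN, each with the same 2 treatments and 3 libraries per treatment, served as the comparison for the response of the T58A line. The labels do not say whether the libraries of a group came from separate cultures, so p-values measure only the spread between libraries. For the tests of single genes that spread was pooled within the 10 groups of the series. Only 1 line carries the single T58A mutant.

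CDK9 pairs with cyclin T in the P-TEFb complex, which releases RNA polymerase II (RNAPII) from its pause near the start of genes, and blocking it stops new mRNA synthesis so that short-lived transcripts drain first. CDK2 drives the entry into S phase. Threonine 58 and serine 62 of the MYC proteins form a phosphorylation-dependent degradation signal read by the ubiquitin ligase FBXW7, and the T58A change makes MYCN protein more stable.

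The codons at stake lie in exon 2 of 3 of MYCN, at chr2:16082349-16082378 of GRCh37, plus strand. The reference sequence of codons 55 to 64 is given with codons 58 (threonine) and 62 (serine) in capitals; the T58A transgene changes the first of these and leaves the second, which is the site of the S62A change of other lines in the series.
MYCN codons 55 to 64: ctgctgcccACGcccccgctgTCGcccagc

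MYCN (chr2:16080672-16087129) was at 7.27, 9.84 and 8.44 FPKM in the 3 DMSO libraries of the T58A line. After CYC065 it was at 10.6, 9.73 and 13.1 FPKM as deposited. These ranges overlap, and MYCN was listed at 0 in the parental libraries. FPKM, fragments scaled to transcript length and library size, state a gene relative to its library's fragments, not as a share of summed FPKM. The study added ERCC spike-ins, synthetic RNAs, by cell number, so FPKM scaled to the spike-ins state a level relative to RNA added in proportion to cells. Both scales were used on log2(value + 0.1), which understates the change of low genes, and genes were tested with limma across 11575 genes, those whose mean reached 1 FPKM. On the spike-in scale MYCN fell by 0.80 ± 0.22 (log2 change ± SE, limma adjusted p = 0.0022), a 1.74-fold lower level, and on the deposited scale it was higher by 0.39 ± 0.17 (adjusted p = 0.043). Its change on the spike-in scale was thus smaller than that of the median tested gene.

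Markers of the mesenchymal state were present and those of the adrenergic state were mixed. All 8 mesenchymal markers, VIM and PRRX1 among them, were above 1 FPKM in each of the 6 libraries. Of 16 adrenergic enzymes and granule proteins, 11 were listed at 0 in all 6 libraries, with DBH and CHGA among them, while SCG2, a granule protein, was at 11.5 to 15 FPKM, CHGB at 0.936 to 1.38 and TH under 1 FPKM. The 10 tested adrenergic transcription factors summed to 253 to 272 FPKM in DMSO. Endothelial markers stayed under 1 FPKM in every library, 4 of 8 epithelial and 5 of 8 blood cell markers were at 0 in all 6, and the summed deposited level of the blood list rested on CD68, at 2.54 to 9.06 FPKM. The summed blood list was at 2.79 to 4.53 FPKM in DMSO and 7.72 to 10.1 after CYC065, and the epithelial list at 4.16 to 4.66 and 5.89 to 6.17; their part in the results was not tested.

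The spike-ins told the treatments apart. The median log2 level of the 55 spike-ins used was 3.45, 4.12 and 3.43 in DMSO libraries 0, 1 and 2 (numbers of the deposited columns, which match no label) and 4.84, 4.84 and 4.89 after CYC065. DMSO library 1 stood apart from the other DMSO libraries, and it alone was near the CYC065 libraries in the share of summed FPKM taken by spike-ins, 5.59% against 3.47% to 3.72% in the other DMSO libraries and 5.19% to 5.95% after CYC065. The main counts on the spike-in scale, and those of the lists it moved most, are therefore also given without it. The total number of reads is unknown, and a relative depth read from the smallest FPKM values was 0.774 to 1 in DMSO and 0.497 to 0.561 after CYC065. The CYC065 libraries were thus the shallower ones, and low genes are the less certain there.

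Most transcripts were lower after CYC065 relative to the spike-ins. On the spike-in scale the median tested gene was 2.12-fold lower, a log2 change of -1.08 ± 0.0306 (SD over the 3 CYC065 libraries), at -1.07, -1.07 and -1.12 in the single libraries. Each was set against the mean of the DMSO libraries, so this SD leaves out the larger spread of the DMSO libraries. The median level of the tested genes was 4.37, 3.70 and 4.39 (log2) in DMSO and 2.80, 2.81 and 2.76 after CYC065, with no overlap, and the exact two-sided permutation p was 0.1, the smallest that 3 against 3 libraries allow. Of the 11575 genes, 9747 fell (84.2%) and 145 rose (1.25%) at a limma adjusted p under 0.05. In 76.8% of genes all CYC065 libraries lay below all DMSO libraries, and in 1.09% above them. Without DMSO library 1 the median was -1.31, with 10497 genes lower and 119 higher. Since the spike-ins were added by cell number, this scale refers to RNA per counted cell. Errors in the cell counts or in the amount of spike-in were not tested.

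Rises and falls were nearer in number without the spike-in scale. The FPKM of all genes summed to 445899 to 466276 in DMSO and to 667866 to 709155 after CYC065. A small rise on the deposited scale can thus be a smaller share of that sum. On the deposited scale the median change was 0.07, 4407 genes rose (38.1%) and 3855 fell (33.3%), with the libraries fully separated in 38.1% and 33.2% of genes. All 3855 genes that fell on the deposited scale also fell on the spike-in scale, whereas 3129 genes fell on the spike-in scale and rose on the deposited scale. A further 2763 genes fell on the spike-in scale and were not called on the deposited scale. Of the 145 risers on the spike-in scale, 144 also rose on the deposited scale.

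**Figure D1:**
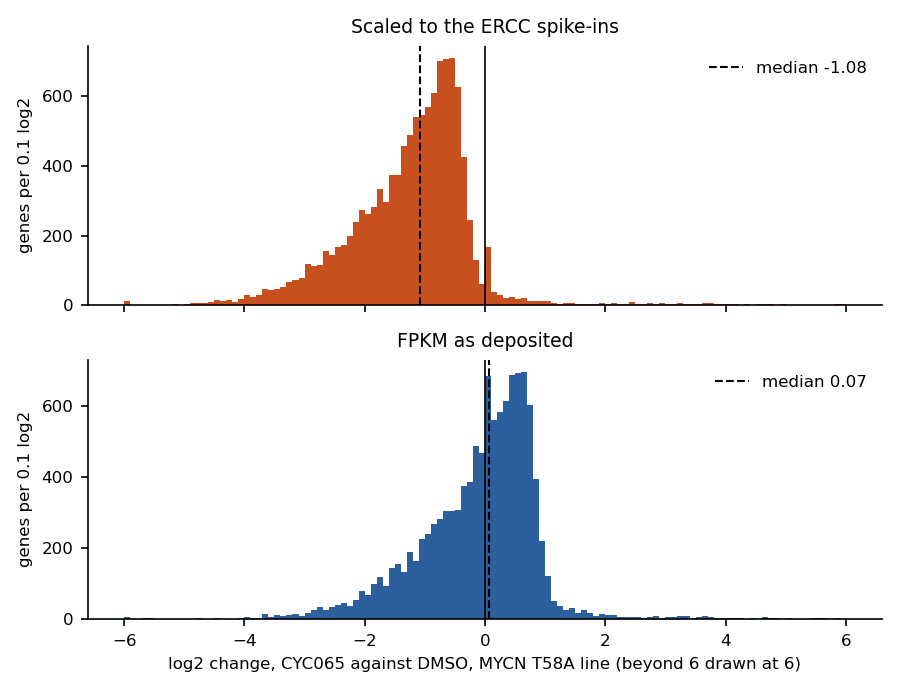
Distribution over the 11575 tested genes of the log2 change with CYC065 in the MYCN T58A line (x axis; y axis, genes per bin of 0.1 log2), with FPKM scaled to the ERCC spike-ins in the top panel and as deposited in the bottom panel. The dashed line marks the median, -1.08 in the top panel and 0.07 in the bottom panel, and changes beyond 6 are drawn at 6.

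The genes that fell most were spread over unrelated functions, and the 12 that led the fall were the same on both scales. OSGIN1 (chr16:83964916-83999937), a growth inhibitor induced by oxidative stress, was at 28.9, 29.95 and 33.2 FPKM in DMSO and at 1.80, 2.42 and 1.43 after CYC065. Every CYC065 library was far below every DMSO library, and OSGIN1 fell by 5.15 ± 0.25 on the spike-in scale (limma adjusted p = 1.3e-14) and changed by -3.99 ± 0.20 on the deposited scale. TNFRSF1A (chr12:6437923-6451280), the main receptor for tumor necrosis factor, went from 58.3, 63.2 and 62.2 FPKM to 5.76, 4.94 and 6.02, and fell by 4.62 ± 0.21 on the spike-in scale. AXIN1, the scaffold of the complex that degrades beta-catenin, was at 8.45, 10.98 and 8.82 FPKM and at 0.843, 0.596 and 0.471. It fell by 4.82 ± 0.29 on the spike-in scale. CCNF, which encodes cyclin F, the substrate receptor of a ubiquitin ligase, fell by 4.57 ± 0.26 on that scale, from 15.6, 15.4 and 19.2 FPKM to 1.43, 1.17 and 1.88.

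The other leading fallers included SMG9, a factor of nonsense-mediated mRNA decay (-4.77 on the spike-in scale), the mitochondrial translation factor C12orf65 (-5.09), the F-box protein FBXO34 (-4.95), ZBED5 (-4.85), FAM83G (-4.80), the RNase P subunit RPP14 (-4.44) and the zinc finger gene ZNF7 (-4.42). The first of the ranking, RPL21P28, is a processed pseudogene entry that shares reads with a ribosomal protein gene and spread from 16.1 to 67.96 FPKM in DMSO, so it is uncertain, and its SE was 2.09. In all, 2258 genes fell at least 4-fold on the spike-in scale and 106 at least 16-fold.

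Few genes rose on the spike-in scale. The leading risers by the rule were CSF2, EID3 and IER3, and of the 12 it names only IER3, JUNB and ATF3 are on the immediate early list. IER3 (chr6:30710976-30712325), an immediate early gene of stress and survival signals, was at 5.51, 6.70 and 6.00 FPKM in DMSO and at 194, 211 and 203 after CYC065. It rose by 3.86 ± 0.42 on the spike-in scale (limma adjusted p = 7.1e-09) and by 5.04 ± 0.35 on the deposited scale, with the groups far apart. JUNB (chr19:12902300-12904129), a subunit of the AP-1 transcription factor, went from 48.7, 57.6 and 50.2 FPKM to 766, 830 and 780, a rise of 2.73 ± 0.20 on the spike-in scale. GDF15 (chr19:18485541-18499986), a secreted stress cytokine and p53 target, went from 18.2, 19.6 and 18.3 FPKM to 232, 240 and 253 and rose 5.64-fold on that scale. The kinase gene NUAK2 went from 4.98, 5.49 and 4.41 FPKM to 68.3, 62.8 and 73.6. ATF3, a stress-induced transcription factor, went from 5.52, 3.96 and 5.20 FPKM to 66.3, 64.3 and 68.04. In both genes every CYC065 library was above every DMSO library, and the rises on the spike-in scale were 2.58 and 2.56.

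EID3, an inhibitor of the EP300 coactivator, was at 1.59, 1.02 and 1.00 FPKM in DMSO and 61.7, 57.1 and 52.0 after CYC065, a rise of 4.33 ± 0.27 on the spike-in scale. It lies within TXNRD1 on the same strand, so reads of that gene's introns cannot be told apart from its own. CSF2, the cytokine GM-CSF, was listed at 0, 0 and 0.243 FPKM in DMSO and was at 9.69, 11.7 and 10.8 FPKM after CYC065. TNFAIP3, an inhibitor of NF-κB signaling, and the chemokine gene CXCL2 rose 5.65-fold and 5.46-fold on that scale. CSAG4, RPS14P3 and the readthrough entry NME1-NME2 also met the rule, at 3.29, 2.46 and 2.16 on the spike-in scale, but share sequence with other genes and are uncertain. Of the 145 risers, 94 had a mean under 5 FPKM in DMSO and 108 rose at least 2-fold. By list, 22 were small RNA entries, 12 replication-dependent histone genes, 10 p53 targets, 10 immediate early genes and 5 NF-κB targets, and 66 were on no list. Among the 145, 59 had a mean under 1 FPKM in DMSO. They passed the filter through libraries where they are high, so these counts of risers are a description.

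**Figure D2:**
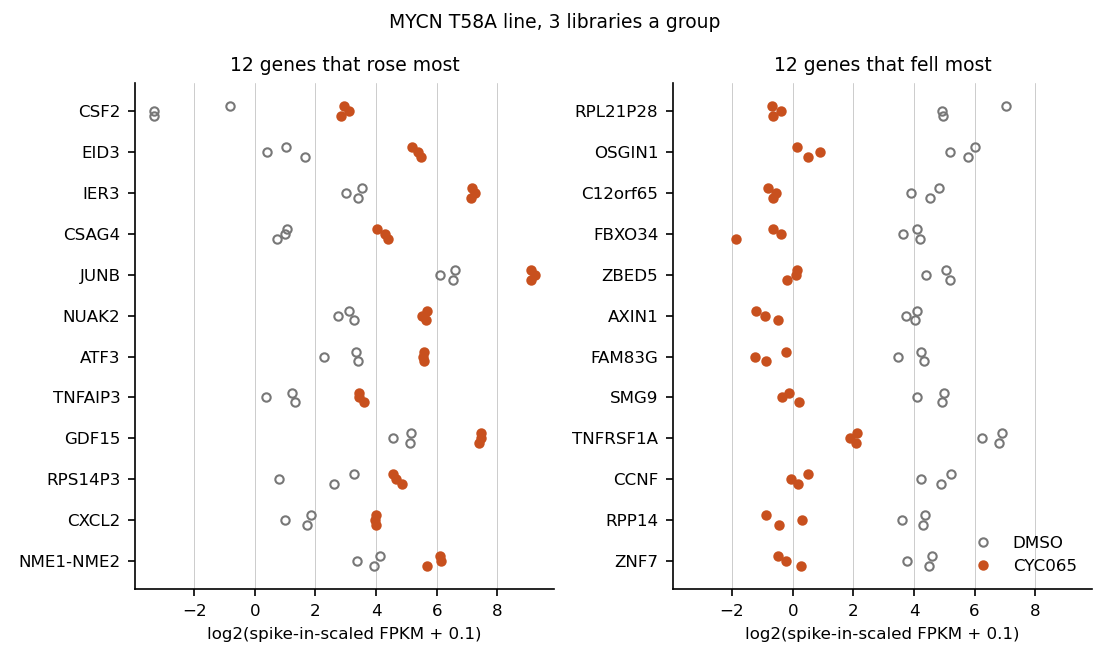
Spike-in-scaled level, log2(FPKM + 0.1), of the 12 genes that rose most (left) and the 12 that fell most (right) in the MYCN T58A line, among genes whose mean over the 6 libraries reached 5 FPKM. Open circles are the 3 DMSO libraries and filled circles the 3 CYC065 libraries, which do not overlap in any of these genes.

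A TATA box, the letters that position RNAPII at some strongly regulated genes, was looked for in the promoters of risers and fallers. Among protein-coding genes with a promoter in the RefSeq table of GRCh38.p14, the letters TATAAA began 40 to 20 bases before the start, on the gene's own strand, in 20 of 85 risers (23.5%) and in 132 of 7834 fallers (1.68%) on the spike-in scale, against 199 of 8950 tested genes (2.22%) and 2.3% of the 35116 promoters of the table. Part of these risers were histone genes, and without the histone list the share was 11 of 74 risers (14.9%) against 2.01% of tested genes. The E-box CACGTG, the letters MYC proteins bind, was found on both strands anywhere in the 300 bases in 10.6% of risers, 13.4% of fallers, 13.1% of tested genes and 7.26% of all promoters; the 85% of risers and 84.1% of fallers with a promoter were searched, and no test was run. The 60 bases before the start are shown 5′ to 3′ for 5 risers and 3 fallers, with TATAAA in capitals. They were chosen after their values were seen, the risers as examples with these letters and the fallers as examples without. Other leading risers, CSF2, NUAK2, ATF3, TNFAIP3, CXCL2 and NME1-NME2, lack these letters there.
JUNB (chr19:12791426-12791485, plus strand): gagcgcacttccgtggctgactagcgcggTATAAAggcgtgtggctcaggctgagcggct
GDF15 (chr19:18386098-18386157, plus strand): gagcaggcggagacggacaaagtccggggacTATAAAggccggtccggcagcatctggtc
CTGF (chr6:131951373-131951432, minus strand): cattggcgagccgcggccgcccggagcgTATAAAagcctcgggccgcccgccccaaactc
CXCL8 (chr4:73740509-73740568, plus strand): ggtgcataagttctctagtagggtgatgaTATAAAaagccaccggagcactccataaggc
GADD45B (chr19:2476067-2476126, plus strand): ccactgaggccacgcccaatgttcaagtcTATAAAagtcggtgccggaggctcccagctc
OSGIN1 (chr16:83953180-83953239, plus strand): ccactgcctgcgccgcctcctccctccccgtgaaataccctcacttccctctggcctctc
TNFRSF1A (chr12:6342077-6342136, minus strand): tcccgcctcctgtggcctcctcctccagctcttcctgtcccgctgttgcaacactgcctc
CCNF (chr16:2429387-2429446, plus strand): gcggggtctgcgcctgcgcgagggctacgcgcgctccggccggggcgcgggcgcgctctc
A match is a description of letters, not a binding site.

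The drug's targets and the transcription machinery did not move alike. CDK9, the target kinase, was at 20.1, 19.6 and 18.4 FPKM in DMSO and 11.7, 16.98 and 14.9 after CYC065, and fell on both scales (-1.61 ± 0.20 spike-in, -0.43 ± 0.09 deposited). CDK2 went from 45.2, 45.2 and 44.4 FPKM to 60.4, 66.6 and 59.4, so it fell on the spike-in scale (-0.73 ± 0.19) and rose on the deposited scale (0.47 ± 0.07). Of 22 genes of P-TEFb and pausing, 18 fell and 0 rose on the spike-in scale (median -1.21, against -1.08 in all tested genes), and 10 rose and 7 fell on the deposited scale. Among all tested genes 84.2% fell and 1.25% rose on the spike-in scale and 38.1% rose and 33.3% fell on the deposited scale, and the counts of each list are read against these shares. The share that fell on the spike-in scale was near that background for P-TEFb and pausing (81.8%), as it was for heat shock and cholesterol synthesis genes (81.8% each) and transcriptional CDKs (80%). So it was for the MYC network (81.8%), contractile and cytoskeletal genes (84%) and the ATF4 and unfolded protein response list (85%) described below. The members spread widely. MEPCE (chr7:100025945-100031749), which caps the 7SK RNA that holds P-TEFb inactive, went from 50.1, 56.3 and 53.8 FPKM to 6.41, 5.94 and 6.83 and fell by 4.23 ± 0.22 on the spike-in scale. AFF1, a scaffold of the super elongation complex, fell by 3.14 on that scale and HEXIM2, another inhibitor of P-TEFb, by 3.08. By contrast, cyclin T2 (CCNT2, -0.11) and the elongation factor EAF1 (0.35) passed no test on the spike-in scale, and each rose on the deposited scale, by 1.07 and 1.54.

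The same spread was seen among other transcriptional kinases. Of 10 transcriptional CDKs and cyclins, 8 fell on the spike-in scale (median -0.92), with 5 higher and 3 lower on the deposited scale. CDK12 and CDK13, which phosphorylate elongating RNAPII, fell by 2.72 and 2.45 on the spike-in scale and by 1.54 and 1.27 on the deposited scale, whereas their partner cyclin K (CCNK, -0.19 on the spike-in scale) passed no test there and rose by 1.00 on the deposited scale. CDK7, of the general factor TFIIH, fell by 2.24 on the spike-in scale. Of 44 RNAPII and Mediator subunits 39 fell (median -1.36), MED7 by 3.79, and on that scale MED26, the Mediator subunit that recruits elongation factors, was the 1 riser, at 1.10. Of the subunits 17 rose on the deposited scale, MED26 by 2.27, and 19 fell. Of 33 SR proteins and hnRNPs, which act in splicing, 32 fell on the spike-in scale (median -0.82) and 24 rose on the deposited scale.

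Of 11 tested genes of the MYC network, 9 fell and 2 rose on the spike-in scale (median -1.44), and 5 fell and 3 rose on the deposited scale. MYC itself, the paralog of MYCN, was low in DMSO at 0.414, 0.468 and 0.457 FPKM, and was at 4.04, 4.15 and 5.001 FPKM after CYC065. It rose by 1.96 ± 0.22 on the spike-in scale (limma adjusted p = 1.4e-08) and by 3.04 ± 0.17 on the deposited scale. MXD1, which competes with MYC proteins for their partner MAX, was the other riser, at 0.99 and 2.11 on the same scales. The MAX partners MGA and MNT fell, by 3.62 and 2.59 on the spike-in scale and by 2.48 and 1.43 on the deposited scale.

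Cell cycle lists differed in how far they fell. All 36 mitotic genes fell on the spike-in scale (median -1.72), and 24 fell and 6 rose on the deposited scale. The mitotic kinase gene AURKA (chr20:54944445-54967393) went from 81.3, 76.3 and 80.9 FPKM to 16.3, 17.1 and 18.98, a change of -3.37 ± 0.19 on the spike-in scale and -2.18 ± 0.08 on the deposited scale. CDCA8, of the chromosomal passenger complex, fell by 3.62 on the spike-in scale, and PTTG1, which encodes securin, by 0.52 there, a call lost without DMSO library 0 or 2 or CYC065 library 1 or 2, and was higher by 0.68 on the deposited scale. Of 34 homologous recombination genes 33 fell (median -1.66), with PALB2 at -3.91 and BRCA2 at -3.67, and 20 fell and 4 rose on the deposited scale. Of 42 DNA replication genes 41 fell on the spike-in scale, but at a median of -0.97, and 23 rose and 13 fell on the deposited scale. Of 21 CDK2 and G1/S genes, 19 fell and 2 rose on the spike-in scale (median -1.06), and 10 rose and 9 fell on the deposited scale. CCNE2, a partner of CDK2, fell by 3.12 and CCNA2 by 2.36 on the spike-in scale. The CDK inhibitor gene CDKN1A (p21) went from 51.8, 54.5 and 53.1 FPKM to 221, 231 and 235.7 and rose by 0.91 ± 0.19 on that scale. FBXW7, the ligase subunit that reads the signal which T58A removes, was higher by 0.61 ± 0.23 on the spike-in scale, but by 0.24 without DMSO library 1, where the call was lost, as it was without CYC065 library 1 or 2, and rose by 1.79 on the deposited scale.

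In the BCL2 family, which sets the threshold for apoptosis, the 4 tested survival genes fell on the spike-in scale and the death genes were mixed. Among all tested genes 84.2% fell there, and the survival median of -1.32 was near the -1.08 of all tested genes. MCL1, a short-lived survival protein, was at 109, 101 and 102 FPKM in DMSO and 127, 133 and 131 after CYC065, so it fell by 0.87 ± 0.19 on the spike-in scale and rose by 0.32 ± 0.06 on the deposited scale. All 4 survival genes fell on the spike-in scale, with BCL2L1 at -1.56, BCL2L2 at -1.08 and BCL2, which was low and spread from 0.254 to 1.57 FPKM after CYC065, at -1.77, a call lost without CYC065 library 1 (-1.12). On the deposited scale 1 rose and 1 fell. Of 7 death genes 4 fell and 1 rose on the spike-in scale (median -0.67), and 5 rose and 2 fell on the deposited scale. BBC3 (PUMA), a p53 target, was the riser, from 3.91, 6.50 and 6.89 FPKM to 36.96, 40.8 and 40.1 (1.61 ± 0.24 on the spike-in scale). BAK1 and BCL2L11 (BIM) fell on both scales, by 2.81 and 2.17 on the spike-in scale, BAX and BID fell by 0.73 and 0.67 there and rose on the deposited scale, and PMAIP1 (NOXA) and BAD passed no test on the spike-in scale (0.26 and -0.48) and rose on the deposited scale.

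Among 24 p53 targets, a list that shares CDKN1A, BBC3, BAX and PMAIP1 with those above, 10 rose and 8 fell on the spike-in scale, and 20 rose and 3 fell on the deposited scale. The median of the list was 0.14 on the spike-in scale, and it turned to -0.19 without DMSO library 1, with 9 higher and 11 lower. GADD45A, a stress sensor, went from 28.4, 27.2 and 29.5 FPKM to 285, 296 and 279, with no overlap, and rose by 2.14 ± 0.20 on the spike-in scale. BTG2, an antiproliferative factor, rose by 2.16 ± 0.24. In the other direction, the DNA repair gene XPC and the kinase gene PLK3 fell, by 2.25 and 1.91 on the spike-in scale and by 1.08 and 0.74 on the deposited scale.

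Of 26 immediate early genes, which respond to growth factors and stress within minutes, 10 rose and 9 fell on the spike-in scale, with 20 higher and 3 lower on the deposited scale. Their median was 0.10 on the spike-in scale and -0.26 without DMSO library 1. TIPARP and JUND fell on both scales, by 2.05 and 0.81 on the deposited scale. Of 18 NF-κB targets 5 rose and 7 fell (median -0.23), and 10 rose and 4 fell on the deposited scale, with the chemokine gene CXCL3 up and the NF-κB subunit RELB down on both; the call of CXCL3 on the spike-in scale was lost without DMSO library 2. Without DMSO library 1 the counts of the NF-κB list were 6 higher and 9 lower, at a median of -0.36. The chemokine gene CXCL8, named here after its values were seen, went from 8.80, 9.43 and 12.2 FPKM to 88.2, 87.4 and 86.3.

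Feedback and mechanical target genes were mixed. Of 13 ERK feedback genes 9 fell and 2 rose on the spike-in scale (median -1.46), with DUSP10, a phosphatase of stress kinases, at -4.66, and SPRY4 and DUSP6 at 1.12 and 0.71; 5 rose and 7 fell on the deposited scale. Of 23 targets of YAP/TEAD 18 fell and 4 rose (median -0.86), with 11 higher and 6 lower on the deposited scale. CYR61, a secreted matrix protein, went from 134, 135 and 140 FPKM to 1015, 951 and 1032, a rise of 1.68 ± 0.19 on the spike-in scale. CTGF went from 107, 101 and 105 FPKM to 431, 428 and 426 and rose by 0.85 ± 0.19. Both genes were above every DMSO library in each CYC065 library, and on the deposited scale they rose by 2.87 and 2.04. Of 7 ID and HES/HEY genes, 5 fell and 0 rose on the spike-in scale, and 3 fell and 1 rose on the deposited scale.

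Transcription factors tied to the cell state had lower medians than matrix genes. Of 24 mesenchymal transcription factors 23 fell and 0 rose on the spike-in scale (median -1.78), and 19 fell and 5 rose on the deposited scale. TWIST1 fell by 2.94 on the spike-in scale, whereas STAT3 (-0.34) passed no test there and rose by 0.84 on the deposited scale. All 10 tested adrenergic transcription factors fell on the spike-in scale (median -2.49), and 9 fell and 1 rose on the deposited scale. TBX2 (chr17:59477204-59486827), a T-box factor of the NB circuitry, went from 96.2, 105 and 110 FPKM to 14.7, 13.7 and 15.5 and fell by 2.82 ± 0.10 even on the deposited scale (limma adjusted p = 4.7e-17). EYA1 and GATA3 fell by 3.29 and 2.04 on the spike-in scale. NEFL, a neurofilament gene on this list and no transcription factor, fell by 0.58 on the spike-in scale and rose by 0.61 on the deposited scale.

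By contrast, of 30 collagen and matrix genes 23 fell on the spike-in scale at a median of -0.56, and 27 rose and 1 fell on the deposited scale. Without DMSO library 1, 28 fell on the spike-in scale, at a median of -0.78. THBS1 fell on both scales, by 1.54 and 0.35, and DCN (0.28) and LOX (-0.12) passed no test on the spike-in scale. Of 25 contractile and cytoskeletal genes 21 fell on the spike-in scale (84%, against 84.2% of all tested genes), at a median of -0.64. All 25 fell there without DMSO library 1, and 21 rose on the deposited scale. ZYX was at -1.21 and MYL12B, which passed no test, at -0.25 on the spike-in scale. VIM, the mesenchymal intermediate filament, fell by 0.57 on the spike-in scale and rose by 0.62 on the deposited scale.

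**Figure D3:**
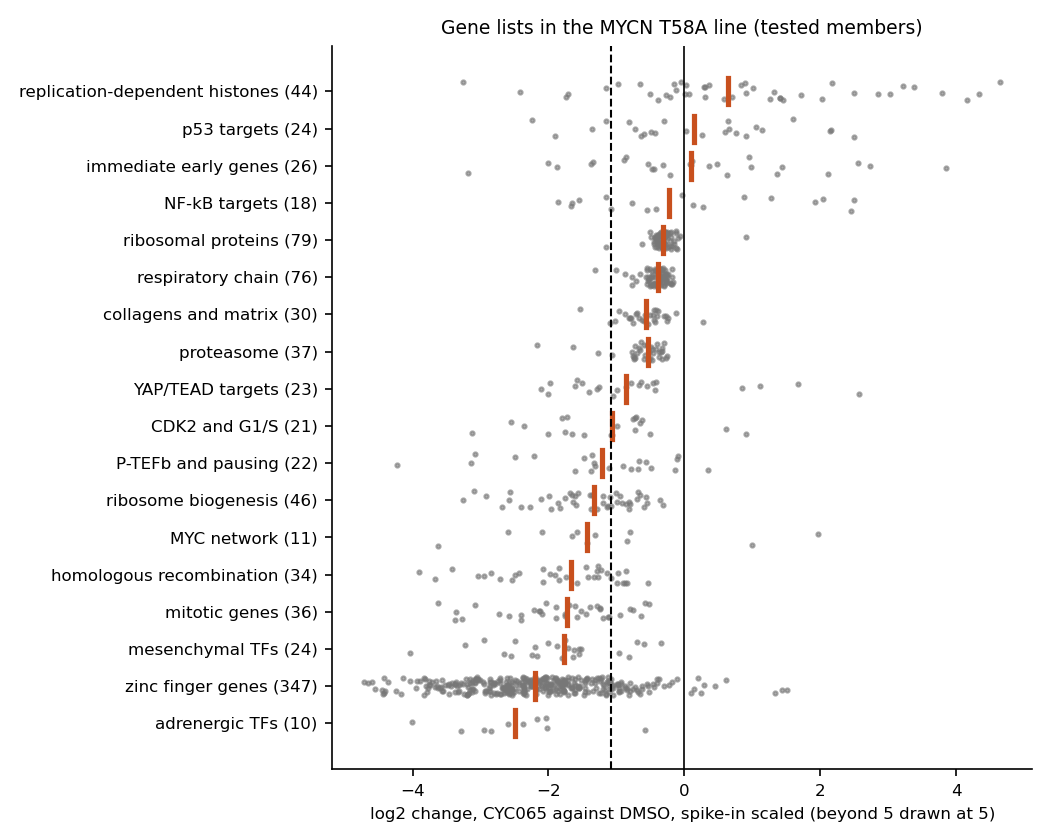
Log2 change with CYC065 in the MYCN T58A line, spike-in scaled (x axis), of the tested members of 18 gene lists (y axis, number of tested members in brackets). Gray points are genes, the red bar is the median of the list, the dashed line is the median of all tested genes at -1.08, and points beyond 5 are drawn at 5. Ribosomal proteins and respiratory chain genes lie close to 0 and close together, and zinc finger and adrenergic transcription factor genes lie far to the left.

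Lists for protein and energy production had medians nearer 0 than that of all tested genes on the spike-in scale. Of 79 ribosomal protein genes 13 fell and 0 rose on the spike-in scale (median -0.31), and 78 rose on the deposited scale. Without DMSO library 1, 58 fell, at a median of -0.50. RPS27 (-0.10) passed no test on the spike-in scale, and RPL13A was the lowest of the list at -1.15. Of 76 respiratory chain genes 33 fell on the spike-in scale (median -0.39), 68 without DMSO library 1, and 74 rose on the deposited scale. Of 37 proteasome subunits 28 fell (median -0.54), all 37 without DMSO library 1, and on the deposited scale 33 rose and 2 fell. Of 20 glycolysis genes 14 fell (median -0.47), 18 without DMSO library 1, and on the deposited scale 15 rose and 2 fell, with PFKFB3, a regulatory enzyme, at -3.08 and GAPDH, which passed no test, at -0.33 on the spike-in scale. The 77 mitochondrial ribosome genes were nearer the median of all genes, with 71 lower (median -0.88), and on the deposited scale 46 rose, 13 fell and 18 were not called.

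The machinery that builds ribosomes had a lower median than the ribosomal proteins. Of 46 ribosome biogenesis genes 44 fell and 0 rose on the spike-in scale (median -1.32), and 20 fell and 17 rose on the deposited scale. RRS1, an assembly factor of the large subunit, went from 71.4, 77.3 and 69.8 FPKM to 15.4, 19.7 and 16.8 and fell by 3.26 ± 0.20 on the spike-in scale. POLR1B, a subunit of RNA polymerase I, fell by 2.92. FBL and NHP2, core proteins of the small nucleolar particles, passed no test on the spike-in scale (-0.36 and -0.32) and rose on the deposited scale.

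Stress and lipid lists lay between these. Of 22 heat shock genes 18 fell and 1 rose (median -0.72), with DNAJB1 at -2.89 and HSPA2, which was under 0.4 FPKM in DMSO, at 1.97. Of 22 cholesterol synthesis genes 18 fell (median -0.71), and of 18 interferon-stimulated genes 12 fell (median -1.01), 17 without DMSO library 1, IFIT5 by 3.24. These values are on the spike-in scale. By deposited FPKM, 15 heat shock genes rose and 2 fell, 15 cholesterol synthesis genes rose and 5 fell, and 8 interferon-stimulated genes rose and 6 fell.

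Zinc finger genes, mostly DNA-binding repressors, had the lowest median of the longer lists. Of 347 tested, 328 fell and 4 rose on the spike-in scale (median -2.19), and 251 fell and 35 rose on the deposited scale. ZNF584 was the lowest, at -4.71, from 8.39, 8.43 and 8.79 FPKM to 0.709, 0.486 and 0.658. ZNF121 and ZNF654 were among the 4 risers, at 1.51 and 1.44 on the spike-in scale.

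Replication-dependent histone genes, whose mRNAs normally end without a poly(A) tail, had a median above 0 on both scales. Of 44 tested, 12 rose, 3 fell and 29 were not called on the spike-in scale (median 0.65), and 26 rose and 0 fell on the deposited scale. Without DMSO library 1, 10 rose and 5 fell on the spike-in scale. Members at or near 0 in DMSO passed the filter through libraries where they are high, so these counts and medians are a description. HIST1H3B was listed at 0, 0 and 0.53 FPKM in DMSO and was at 4.69, 6.00 and 8.38 FPKM after CYC065. Histone genes also spread widely within a group, as HIST1H4J did at 17.9, 1.32 and 1.47 FPKM after CYC065, from 0 in all DMSO libraries. Of 286 small RNA entries, which poly(A) libraries measure poorly, 22 rose and 22 fell, with a median change of 0 on the spike-in scale, 15 rose and 23 fell without DMSO library 1, and on the deposited scale 27 rose and 5 fell. Of 170 antisense RNAs 107 fell and 5 rose on the spike-in scale (median -1.04), 119 and 2 without DMSO library 1, and on the deposited scale 39 rose and 30 fell. Of 21 snoRNA host genes 14 fell and 0 rose on the spike-in scale, and 10 rose and 5 fell on the deposited scale.

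The median change differed by the level in DMSO. On the spike-in scale the median change was -1.39 in 2787 genes of 1 to 5 FPKM, -1.45 in 2186 genes of 5 to 10 FPKM, -1.07 in 4478 genes of 10 to 50 FPKM, -0.66 in 846 genes of 50 to 100 FPKM and -0.49 in 766 genes of at least 100 FPKM. Of these last, 86.6% rose on the deposited scale. Genes under 1 FPKM in DMSO passed the filter through their level in other libraries, so their median of 0 was set in part by the filter. By genomic span, genes under 5 kb had a median of -0.64 and genes of 100 to 200 kb of -1.24, but among genes of 10 to 50 FPKM the medians ranged only from -1.11 to -0.95 over the spans. These points are genes of the same libraries, not replicates.

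**Figure D4:**
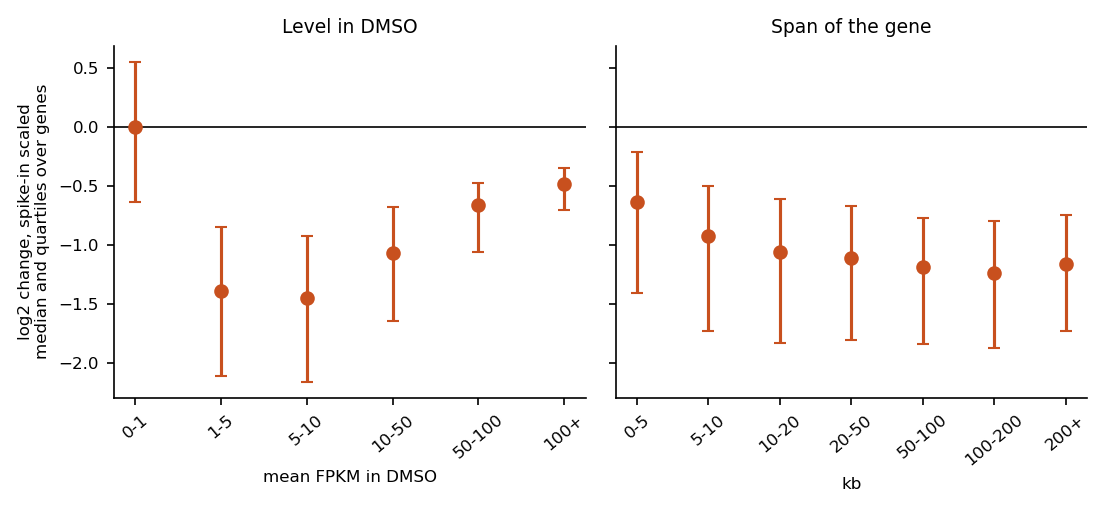
Median (points) and quartiles (bars) over genes of the log2 change with CYC065 in the MYCN T58A line, spike-in scaled (y axis), by the mean FPKM in DMSO (left) and by the genomic span in kb (right). The median rises from -1.45 at 5 to 10 FPKM to -0.49 at 100 FPKM or more, and falls from -0.64 under 5 kb to -1.24 at 100 to 200 kb.

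The response of the T58A line was then set against that of parental SH-EP cells, by an interaction term in the same limma fit. The median gene changed by -1.06 in SH-EP on the spike-in scale. On that scale 300 genes (2.59%) responded differently, 264 of them higher and 36 lower in T58A, and on the deposited scale 2765 genes (23.9%), 1146 higher and 1619 lower. Without T58A DMSO library 1 the split on the spike-in scale was 187 higher and 189 lower. All 6 SH-EP libraries carry an index sequence that a MYCN library also carries, 2 of them one of a T58A CYC065 library, so they cannot have been read in a shared pool with it, and the pool cannot be told apart from the line.

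CD69, an early activation antigen, rose with CYC065 in T58A and not in SH-EP. It went from 3.12, 2.26 and 2.49 FPKM to 12.02, 13.97 and 18.7 in T58A, while in SH-EP it was at 7.54 to 8.76 FPKM in DMSO and 3.66 to 5.07 after CYC065. The changes differed by 3.47 on the spike-in scale and by 3.396 ± 0.25 on the deposited scale (limma adjusted p = 1.6e-09). ATF3 and MYC rose in both lines on the deposited scale, and by 1.89 and 1.24 more in T58A on the deposited scale. For IER3 the difference was -2.04, but it was listed at 0 to 0.102 FPKM in SH-EP in DMSO, so its change there has no reliable size. PIGBOS1 fell less in T58A, by 2.82 on the deposited scale, and its readings overlap RAB27A on the same strand. The small RNA entries that met the rule for this comparison were listed at 0 in 2 to 7 of the 12 libraries and are not described further.

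The list of ATF4, the transcription factor of the amino acid response, and of the unfolded protein response held members that differed by line. ASNS, asparagine synthetase, was at 47.5, 46.1 and 42.5 FPKM in DMSO and 26.1, 31.3 and 29.3 after CYC065 in T58A. In SH-EP its mean was 28.2 FPKM in DMSO, with a highest library of 28.4, and it was at 57.4 to 58.4 FPKM after CYC065. In the WT line it was at 24.4 to 28.2 and 37.9 to 40.7 FPKM. ASNS thus fell in T58A and rose in the other lines on the deposited scale, with a difference of -1.69 ± 0.09 from SH-EP (limma adjusted p = 2.0e-11) and of -1.22 ± 0.09 from WT (adjusted p = 5.0e-08). On the spike-in scale the difference from SH-EP passed the test (-1.63) and that from WT did not (-0.73, limma adjusted p = 0.092). Of the 20 tested genes of the ATF4 and unfolded protein response list, which were 17 lower and 1 higher with CYC065 in T58A on the spike-in scale (median -1.28), 10 responded lower and 6 higher than in SH-EP on the deposited scale, and 5 lower and 1 higher than in WT. On the spike-in scale 4 responded lower and 5 higher than in SH-EP, and 0 differed from WT.

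The other members, named here after their values were seen unless the rule held them, differed from SH-EP in both directions. PSAT1, of serine synthesis, was at 119, 117 and 106 FPKM and at 99.2, 96.5 and 104 after CYC065 in T58A, against 32.4 to 33.8 and 64.97 to 66.3 in SH-EP, a difference of -1.17 on the deposited scale. TRIB3, a pseudokinase target of ATF4, went from 38.3, 35.6 and 38.2 FPKM to 7.25, 9.09 and 9.89 in T58A and from 15.7 to 17.5 down to 13.1 to 15.6 in SH-EP, a difference of -1.85. CHAC1, which degrades glutathione, fell by 3.15 on the deposited scale in T58A, 1.08 more than in SH-EP and 1.86 more than in WT. SESN2, a stress sensor, rose in both lines on the deposited scale, and by 1.26 less in T58A. PHGDH and PSPH, of serine synthesis, and SHMT2, of one-carbon metabolism, differed by -0.73, -0.78 and -0.32 on the deposited scale, as did the chaperones HSPA5 and PDIA4 by -0.22 and -0.32, and none of these 5 passed the test on the spike-in scale. ATF4 itself (-0.15), ATF5 (0.13), SDF2L1 (0.07) and EDEM1 (-0.28) passed no test of the difference from SH-EP on the deposited scale.

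The 6 members with a higher response in T58A than in SH-EP on the deposited scale were XBP1, HERPUD1, DNAJB9, DDIT3, CEBPB and PPP1R15A. XBP1, a transcription factor of the unfolded protein response, went from 57.5, 57.6 and 58.8 FPKM to 12.8, 13.96 and 11.8 in T58A and from 52.7 to 57.9 down to 5.304 to 6.598 in SH-EP, a difference of 1.05 ± 0.13 on the deposited scale. HERPUD1, which serves the disposal of misfolded proteins, differed by 1.58 and the chaperone DNAJB9 by 2.01. For DNAJB9 the deposited change was 0.04 in T58A and -1.98 in SH-EP. DDIT3 (CHOP) fell from 9.72, 14.5 and 10.8 FPKM to 3.53, 3.55 and 4.77 in T58A and from 7.06 to 8.22 down to 0 to 0.891 in SH-EP. At that level the size of its fall in SH-EP, and so of the difference between the lines, is not reliable. CEBPB, a transcription factor, differed by 0.83 on the deposited scale and PPP1R15A, a phosphatase subunit that reverses the block of translation, by 1.21.

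**Figure D5:**
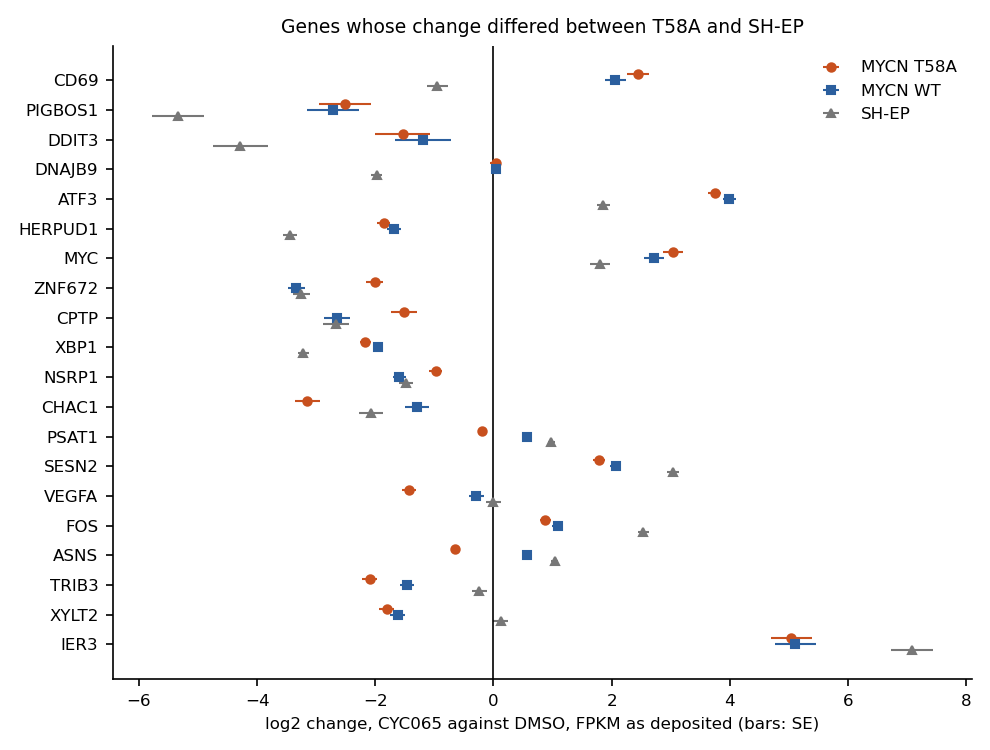
Log2 change with CYC065 on the deposited scale (x axis) in the MYCN T58A (red circles), MYCN WT (blue squares) and SH-EP (gray triangles) lines for 20 genes whose response differed between T58A and SH-EP on that scale. Bars are the SE from limma, with the spread pooled within the 10 groups of the series. CD69 rose in both MYCN lines and not in SH-EP, and ASNS lies below 0 in T58A alone.

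Against the WT MYCN line fewer genes passed the test. The median gene changed by -1.57 in WT on the spike-in scale, and 5 genes (0.0432%) passed the interaction test there, against 3949 at an unadjusted p under 0.05. They were CCDC85A, NSRP1, PLA2G16, ZNF524 and ZNF672, all higher in T58A at a limma adjusted p of 0.045. This count rests on single libraries, since it ranged from 0 to 2426 when each library was left out in turn. On the deposited scale 602 genes (5.2%) differed, 310 higher and 292 lower in T58A. ZNF672 (chr1:249132409-249143716), a zinc finger gene, fell from 17.9, 20.2 and 17.98 FPKM to 3.89, 5.25 and 4.604 in T58A and from 20.4 to 22.1 down to 1.75 to 2.29 in WT, a difference of 1.74 on the spike-in scale and 1.32 ± 0.21 on the deposited scale. VEGFA, the vascular growth factor, fell by 1.43 in T58A on the deposited scale, from 12.8, 12.3 and 12.2 FPKM to 5.10, 3.82 and 4.86. In SH-EP it was at 5.23 to 6.10 FPKM in DMSO and 5.39 to 6.28 after CYC065, and the T58A change differed by -1.43 from SH-EP and by -1.14 from WT on that scale.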

How the data were processed

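RNA-Seq of the MYCN T58A line was analysed with DMSO or 1 µM CYC065 for 6 hours, 3 libraries each, within a table of 30 libraries in 10 groups and 26228 genes. Groups came from the labels; 0 columns belonged to other samples. ERCC spike-ins went into the RNA in proportion to cell number ahead of poly(A) selection, and the authors aligned stranded reads to GRCh37 with HISAT2 and deposited FPKM from Cufflinks, not scaled to the spike-ins. The annotation they used is not given in the sources used here. FPKM keep no read counts, so no count test or counting interval was possible, and a value of 0 can be a failed estimate.

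FPKM were used as deposited and also scaled, 1 factor per library, to an equal median (log2) of 55 of the 92 spike-ins. On log2(FPKM + 0.1), limma 3.58.1 (R 4.3.3; lmFit, eBayes with trend) was fitted over all 10 groups, with Benjamini-Hochberg adjustment over 11575 genes and a threshold of 0.05. Lists are given by their counts and medians, with the shares over all tested genes printed once. Named genes were MYCN, MYC, CDK9, CDK2, MCL1, the 12 largest rises and falls with a mean of at least 5 FPKM and separated libraries, the extremes of each list, and the 3 largest differences between lines in each direction; some genes are not reported here. Members and lists were chosen with earlier results of these data known. GENCODE 44 lifted to GRCh37 gave positions for 96.9% of tested genes. Alternatives were pseudocounts, filters, scalings, the groups in the fit, a 1.5-fold minimum, robust eBayes and leave-one-out fits. On simulated data for the T58A contrast (11575 genes), 169 of 200 changed genes were recovered (84.5%) and 8 unchanged genes were called. The simulation held no library-wide fall and drew the noise of each gene separately. It therefore says nothing of an error in the spike-in scale that all genes of a library share.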

Additional observations from a re-analysis of the deposited data

Results flagged for a closer look

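The results here were picked out because the change with CYC065 differed between the T58A line and another line by the interaction test in limma (adjusted p under 0.05). Values are the log2 change in T58A minus that in the other line. From SH-EP, 300 genes differed on the spike-in scale and 2765 on the deposited scale, and from WT MYCN 5 and 602. Groups of 3 libraries were not tested for outlying samples.

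Against SH-EP, genes that were higher in T58A on the spike-in and deposited scales were CD69 (3.47 and 3.396), PIGBOS1 (3.18 and 2.82), DDIT3 (2.93 and 2.75), DNAJB9 (2.09 and 2.01), ATF3 (1.92 and 1.89), HERPUD1 (1.67 and 1.58), MYC (1.40 and 1.24), ZNF672 (1.32 and 1.24) and XBP1 (1.12 and 1.05). DDIT3 was too low in SH-EP after CYC065 for the size of its difference to be reliable. CPTP, a lipid transfer protein, and NSRP1, a splicing regulator, differed on the deposited scale by 1.15 and 0.50.

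Against SH-EP, genes that were lower in T58A on the spike-in and deposited scales were IER3 (-2.97 and -2.04), XYLT2, an enzyme of proteoglycan synthesis (-1.85 and -1.93), TRIB3 (-1.79 and -1.85), ASNS (-1.63 and -1.69), the AP-1 gene FOS (-1.61 and -1.66), VEGFA (-1.36 and -1.43), SESN2 (-1.23 and -1.26) and PSAT1 (-1.11 and -1.17). IER3 was too low in SH-EP in DMSO for the size of its difference to be reliable. CHAC1 differed on the deposited scale by -1.08. FOS and XYLT2 were chosen after their values were seen.

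Against WT MYCN, ZNF672 differed by 1.74 on the spike-in and 1.32 on the deposited scale, and NSRP1 by 1.10 and 0.62. On the deposited scale alone, CPTP (1.13) and TMEM51 (1.11) were higher, and CHAC1 (-1.86), ASNS (-1.22), PALM2-AKAP2 (-1.21, a readthrough entry), VEGFA (-1.14), PSAT1 (-0.76) and TRIB3 (-0.63) lower.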

How the results depend on the processing

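The fall of most genes was found under every setting that kept the spike-in scale. Centring libraries on their median drops the spike-ins and removes a library-wide change by design, so it cannot test that fall. With it 5391 genes rose and 3159 fell. Of the called genes, 53.3% were higher on the deposited scale and 63.1% after centring. With no filter on low values 287 genes rose and with a mean of at least 5 FPKM 92 rose, since more or fewer genes were tested. The median of -1.08 on the spike-in scale became -0.95 with a pseudocount of 1, -0.77 with no filter, -0.94 with at least 5 FPKM, -0.93 with spike-ins of at least 50 FPKM and -1 with the mean of the spike-ins. Leave-one-out fits gave -1.31 to -0.976, with 119 to 151 genes higher and 8594 to 10497 lower. On the deposited scale 2384 genes rose and 2874 fell with a change of at least 1.5-fold, which turns the balance of 4407 to 3855, and 3986 rose and 2271 fell among genes of at least 5 FPKM. The median was 0.0572 with a pseudocount of 1, 0 with no filter, 0.219 with at least 5 FPKM, 0.0778 with the filter set on the T58A libraries, and 0.0572 to 0.0673 in leave-one-out fits.

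Differences between lines depended more on the processing. The 300 genes that differed from SH-EP on the spike-in scale became 513 with a pseudocount of 1, 454 with no filter, 171 with at least 5 FPKM, 2495 with centring, 136 with spike-ins of at least 50 FPKM, 187 with the mean of the spike-ins and 51 with only the groups compared. Leave-one-out fits gave 183 to 376, with 183 without SH-EP DMSO library 0 and 187 without SH-EP DMSO library 2. On the deposited scale the 2765 became 1228 at 1.5-fold and 2280 to 2604 in leave-one-out fits. The 5 genes that differed from WT MYCN on the spike-in scale became 0 with a pseudocount of 1, spike-ins of at least 50 FPKM or the mean of the spike-ins, 3 with no filter or only the groups compared, 8 with at least 5 FPKM, 11 with a pseudocount of 0.01 or the T58A filter, 634 with centring and 85 with robust eBayes. Leave-one-out fits gave 0 to 2426, with 2426 without WT DMSO library 1, 1561 without T58A DMSO library 2, 53 without T58A DMSO library 0 and at most 5 without any other. The 602 on the deposited scale became 195 at 1.5-fold and 69 with only the groups compared, and 189 (without WT DMSO library 0) to 1090 (without WT DMSO library 2) in leave-one-out fits, with 291 to 393 without WT CYC065 library 1 or 2, T58A DMSO library 0 or 2, or T58A CYC065 library 1 or 2. The cause of these shifts was not tested.

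Of 136 named genes, 100 kept their direction and side of the threshold on the deposited scale, 3 lost the call (BCL2, ZYX and PALM2-AKAP2), 3 gained it (DCN, EAF1 and PMAIP1), and 30 changed sign: ATF5 0.0069, BAD 0.71, BAX 0.46, BCL2L2 0.11, BID 0.53, CCNK 1.00, CCNT2 1.07, CDK2 0.47, DNAJB9 0.038, EDEM1 0.507, FBL 0.83, FOS 0.88, GAPDH 0.86, HSPA5 0.505, LOX 0.98, MCL1 0.32, MYCN 0.39, MYL12B 0.94, NEFL 0.61, NHP2 0.88, PDIA4 0.84, PHGDH 0.33, PPP1R15A 0.18, PTTG1 0.68, RPL13A 0.044, RPS27 1.09, SDF2L1 0.86, SHMT2 0.43, STAT3 0.84 and VIM 0.62. In leave-one-out fits on the spike-in scale, changes near 0 changed sign for CCNT2 (-0.35 to 0.10), LOX (-0.46 to 0.16), PMAIP1 (-0.023 to 0.43) and RPS27 (-0.20 to 0.063). BCL2, CXCL3, FBXW7, HIST1H4J, PTTG1 and SESN2 lost the call when some library was left out. BAD, FBL, FOS, GAPDH, MYL12B, NHP2, PDIA4, SDF2L1 and STAT3 gained a call of a fall without DMSO library 1, and EAF1 of a rise without DMSO library 0 (0.53). CXCL3 also lost the call with a pseudocount of 0.01. No paired analysis was possible because the numbers of the columns (0 to 2) match no replicate number of the labels (1 to 3), so the planned fit with the replicate number as a block was not run.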

Other observations

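The change with CYC065 was also read by the number of exons of the transcript that Ensembl marks as canonical for a gene, among protein-coding genes. On the spike-in scale the median was -1.18 in 209 genes of 1 exon, -1.57 in 447 genes of 2 exons, -1.03 in 2195 genes of 3 to 5 exons and -1.19 in 1432 genes of 21 or more. Of the 1-exon genes 19 rose, and of the genes with 21 or more exons 0 rose and 1376 fell. These are descriptions over genes of the same libraries.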
